A study of Mus musculus with 28 samples.

Results

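The transcription factors of the Snail, Zeb and Twist families, together with the homeodomain factor Prrx1, are the classical inducers of the epithelial to mesenchymal transition (EMT). Snail and Zeb proteins are zinc finger repressors that bind E-boxes in the promoters of epithelial genes such as Cdh1, Twist proteins are basic helix-loop-helix factors, and TGF-β induces members of these families in many epithelial cells. Acetylation of histone H3 at lysine 27 (H3K27ac) marks active promoters and enhancers, so a peak near a gene shows acetylated chromatin there and gives no expression value. H3K27ac peaks nearest to Snai1, Snai2, Snai3, Zeb1, Zeb2, Twist1, Twist2 and Prrx1 were followed here through TGF-β-induced EMT, with and without ERK signalling. A peak was taken when its summit lay within 100 kb of, and nearest to, a protein-coding start site of one of the 8 genes in mm9. This gave 403 of the 893719 peaks in the 15 lists, which merged into 47 of 89050 regions.

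The cells were NMuMG cells of the subclone NMuMG/E9, a mouse mammary gland epithelial line, so every library comes from a single line and no animal was compared. There were 3 ChIP-seq libraries of each of 5 conditions, namely untreated cells (0h), cells given TGF-β at 2 ng/ml with DMSO for 4h or 24h, and cells given the MEK inhibitor UO126 at 25 µM 30 min before TGF-β and kept for 4h (ERKi 4h) or 24h (ERKi 24h). The untreated cells received neither agent, and no library has the inhibitor without TGF-β. Nothing in the sources says that replicates came from separate cultures, so the p-values measure the spread between these libraries. The lists held 50445 to 69180 peaks per library, and they give no read totals, so the depth is unknown and no counting interval was computed. The peak names of ERKi 4h replicate 1 carry a library number out of sequence with the other 14, and without it the count of called regions at ERKi 4h against 4h stays 0. The label of the cells was compared with promoter peaks within 2500 bp of a start site. Of 7 epithelial markers Cdh1, Krt8, Krt18 and Elf3 had a peak there in all 15 libraries, Grhl2 in 3 and Epcam and Esrp1 in none. Of 10 markers of leukocytes, endothelium, muscle, neurons and liver 9 had none in any library and Myog had one in 7. In the narrower promoter used for the members, 1000 bp before to 100 bp after a start site, Krt8 and Elf3 had a peak in all 15. There Cdh1, Krt18, Grhl2, Epcam, Esrp1 and all 10 markers of other cells had none.

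The level of a region is the number of fragments at its summit, scaled to the median of the 26934 regions with a peak in every library. Over the 15 lists 118 of the 403 peaks belonged to Snai1, 51 to Snai3, 66 to Zeb1, 27 to Zeb2, 124 to Twist2 and 17 to Prrx1, and none to Snai2 or Twist1. A promoter runs from 1000 bp before to 100 bp after a start site, and other peaks are called distal. Distances are signed, with minus for upstream. A difference was called where the adjusted p of limma was below 0.05 over all 60506 regions that had a peak in at least 3 libraries. A library without a peak in a tested region was given a floor, the 5th percentile of its own peaks. A difference that rests on such libraries is named as such. Weak peaks lie near this floor, so at weak regions the level can also miss a difference. Of the 47 regions 27 were tested, 24 of them distal and 3 in promoters, and 13 of the 27 had a peak in every library. The other 20 had a peak in 1 or 2 libraries, 11 of them near Twist2, 4 near Zeb2, 3 near Zeb1 and 1 each near Snai3 and Prrx1. The outermost regions inside the limit were at -98.6 and -98.9 kb of Twist2, each with a peak in 1 library, and the first outside it were at -107.8 kb of Twist2, with a peak in all 15 libraries, and at -109.6 kb, with a peak in 1.

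The sequences of 4 regions are shown. For Snai1, Twist2 and Prrx1 this is the distal region with the smallest p at 24h against 0h, which for Prrx1 was not called (limma, adjusted p = 0.494). The Snai1 promoter is shown because it holds the E-box letters that Snail and Zeb proteins bind. Each is the plus strand of mm9 (NCBIM37), 300 bases centred on the summit, with capitals for matches on either strand to TGANTCA (AP-1), CAGGTG (the Snail and Zeb E-box), CCGGAA (ETS), TGTGGTT (RUNX), TGTTTAC (forkhead), GGAATG (TEAD) and CAGACA (SMAD). The first is the Snai1 region with the smallest p at 24h, at chr2:167401865-167402164. The second is that of Twist2, at chr1:93718712-93719011, with 1 ETS match. The third is the region of Prrx1 that had no peak in any ERKi library, at chr1:165221942-165222241. The fourth is the Snai1 promoter, at chr2:167363090-167363389, with 1 E-box and 1 SMAD match.
Snai1 +38.3 kb: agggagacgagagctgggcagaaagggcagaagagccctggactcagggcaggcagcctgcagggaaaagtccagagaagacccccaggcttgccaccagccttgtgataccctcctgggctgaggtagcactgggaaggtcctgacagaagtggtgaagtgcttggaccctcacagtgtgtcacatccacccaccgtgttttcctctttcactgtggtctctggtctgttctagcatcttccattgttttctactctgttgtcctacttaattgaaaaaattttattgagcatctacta
Twist2 +20.8 kb: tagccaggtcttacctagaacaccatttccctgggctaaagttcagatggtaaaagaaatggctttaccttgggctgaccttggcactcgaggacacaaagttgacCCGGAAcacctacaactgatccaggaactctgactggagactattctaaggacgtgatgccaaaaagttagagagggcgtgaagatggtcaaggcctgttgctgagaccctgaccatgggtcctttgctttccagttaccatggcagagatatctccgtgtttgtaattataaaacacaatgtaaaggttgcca
Prrx1 -2.7 kb: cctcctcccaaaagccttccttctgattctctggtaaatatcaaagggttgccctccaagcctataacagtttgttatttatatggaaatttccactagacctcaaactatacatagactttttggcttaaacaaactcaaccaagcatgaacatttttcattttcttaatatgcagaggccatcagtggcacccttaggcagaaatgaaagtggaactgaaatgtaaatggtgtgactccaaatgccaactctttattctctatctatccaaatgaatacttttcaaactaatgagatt
Snai1 -455 bp: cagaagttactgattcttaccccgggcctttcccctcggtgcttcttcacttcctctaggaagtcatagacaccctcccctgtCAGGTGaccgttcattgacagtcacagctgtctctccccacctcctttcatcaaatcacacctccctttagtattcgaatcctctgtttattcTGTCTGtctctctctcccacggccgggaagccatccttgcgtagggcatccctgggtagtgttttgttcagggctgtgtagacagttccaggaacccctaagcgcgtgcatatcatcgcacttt

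Among the 27 tested regions the E-box letters CAGGTG were found in 9, compared with 21.3% of all tested regions, and 5 of the 9 lay near Snai1. The counts were 5 for CCGGAA (6.77% of all regions), 7 for GGAATG (15.9%), 5 for CAGACA (26.9%) and 1 for TGTTTAC (3.95%). No window held TGANTCA (8.86% of all) or TGTGGTT (5.68%). CAGACA occurred 5 times in the window of Twist2 +56.4 kb, and CAGGTG 2 times each there and in that of Snai1 +37.4 kb. These are matches of letters in 300 bases and not evidence of binding.

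**Figure D1:**
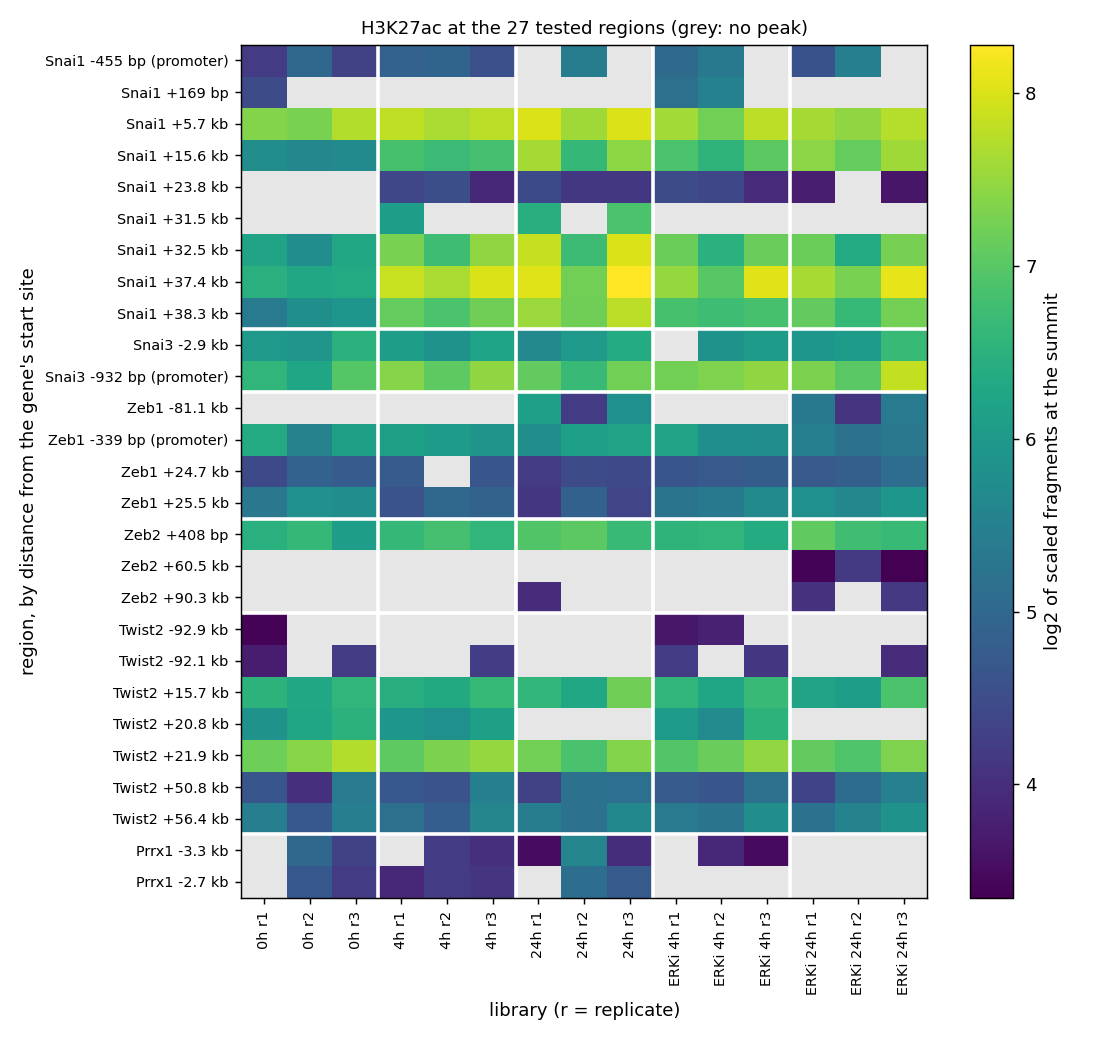
Scaled fragments at the summit (log2 colour scale) of the 27 tested regions in the 15 libraries, with grey for libraries without a peak. The Snai1 regions at +15.6, +32.5, +37.4 and +38.3 kb are lowest at 0h, Zeb1 -81.1 kb has peaks at 24h and ERKi 24h alone, and Twist2 +20.8 kb has none at those times.

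Snai1 (ENSMUSG00000042821, chromosome 2, 167363695 to 167368314, plus strand) encodes Snail, a repressor of Cdh1. The level of its distal H3K27ac rose with TGF-β. At 0h 5, 5 and 6 distal peaks were found in the 3 libraries, at 4h 8, 8 and 7, and at 24h 8, 7 and 9. Both times lay above 0h without overlap. Groups did not overlap, in either direction, for 5.63% of 13190 genes at 4h and 17.7% at 24h, and 3 libraries against 3 cannot give an exact permutation p below 0.1, the value of both. With ERKi the counts were 8, 8 and 7 at 4h and 8, 5 and 7 at 24h. The mean level over the 8 tested distal regions rose by 1.10 ± 0.19 at 24h (log2, SE, adjusted p = 0.000931 over 12461 genes), and 20.0% of those genes were called. In bulk chromatin more cells with the mark and more of it per cell cannot be told apart. At 4h the difference was 0.77 ± 0.19 (adjusted p = 0.0664, with the replicate number as a block 0.00765) and 1.18% of genes were called.

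The regions that rose lay between +15.6 and +38.3 kb, downstream of the gene, in intergenic sequence that the annotation covers with the transcript Gm11476 alone. The next protein-coding start sites, those of Rnf114 and Ube2v1, were 50.4 to 62.3 kb away. The region at +15.6 kb (167377899 to 167379825) held 55.2, 49.7 and 51.4 scaled fragments at 0h, 114.3, 105.3 and 114.1 at 4h, and 196.4, 99.6 and 174.9 at 24h. All treated libraries were above all untreated ones, and 24h replicate 2 was the lowest at 24h. The rise was 1.09 ± 0.22 at 4h (log2, SE, adjusted p = 0.0111) and 1.53 ± 0.22 at 24h (adjusted p = 0.000182). The 4h call was lost without 4h replicate 1 (adjusted p = 0.0536) or replicate 3 (0.0504).

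The region at +37.4 kb (167399927 to 167401725) held 89.5, 78.3 and 82.0 scaled fragments at 0h, 232.2, 202.0 and 260.3 at 4h, and 262.7, 150.0 and 311.4 at 24h. It rose 2.77-fold at both times (adjusted p = 0.00728 at 4h and 0.00148 at 24h). The region at +38.3 kb (167401818 to 167402784), 92 bases further on, held 41.8, 55.9 and 61.3 at 0h, 138.8, 118.8 and 149.0 at 4h, and 186.8, 147.7 and 218.4 at 24h. It had the smallest p among the 27 regions at 24h, with a rise of 3.48-fold (adjusted p = 2.17e-05).

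The region at +32.5 kb (167395408 to 167396700) rose from 74.6, 54.7 and 77.7 at 0h to 231.3, 105.5 and 259.0 at 24h (1.44 ± 0.33, log2, SE, adjusted p = 0.00533). At 4h it held 155.3, 107.8 and 177.3 (1.08 ± 0.33, adjusted p = 0.117, with the block 0.00015). A narrow region at +31.5 kb, 4 bases from the last, was also called at 24h (adjusted p = 0.0414). It had a peak in 3 of 15 libraries, 4h replicate 1 and 24h replicates 1 and 3, and with a floor set by the local background its difference was 0.41 (adjusted p = 0.117), so that call rests on the floor. It is also lost without any one of 0h replicates 1 to 3 or of 24h replicates 1 and 3. The region at +5.7 kb (167368286 to 167370310), at the gene's end, was the most strongly acetylated at 0h, with 164.1, 156.6 and 208.9. It held 261.0, 192.2 and 260.9 at 24h, a difference of 0.43 ± 0.17 (adjusted p = 0.0888, with the block 0.00407).

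The fold enrichment at these regions did not rise with the level. Fold enrichment is the level at the summit over the local background within a library, and that background rose as well. Whether the background came from an input or from the ChIP library itself, where it can include the peak's own and neighbouring fragments, is not given in the sources used here. The scaled background at +15.6 kb went from 7.06 ± 1.11 fragments in untreated cells (SD, n = 3) to 18.7 ± 1.19 after 4h and 30.0 ± 9.41 after 24h of TGF-β. For +38.3 kb the values were 12.7 ± 1.56, 39.1 ± 8.07 and 55.3 ± 18.9 fragments. Read by fold enrichment, the differences of 24h from 0h were -0.38 at +15.6 kb (log2, adjusted p = 0.0428), -0.52 at +32.5 kb (0.0178), -0.56 at +5.7 kb (0.00746), -0.44 at +37.4 kb (0.0835) and -0.20 at +38.3 kb (0.638). The mean over the distal regions was -0.20 (adjusted p = 0.102). The direction of the Snai1 result therefore depends on whether the level or its ratio to the surroundings is read.

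**Figure D2:**
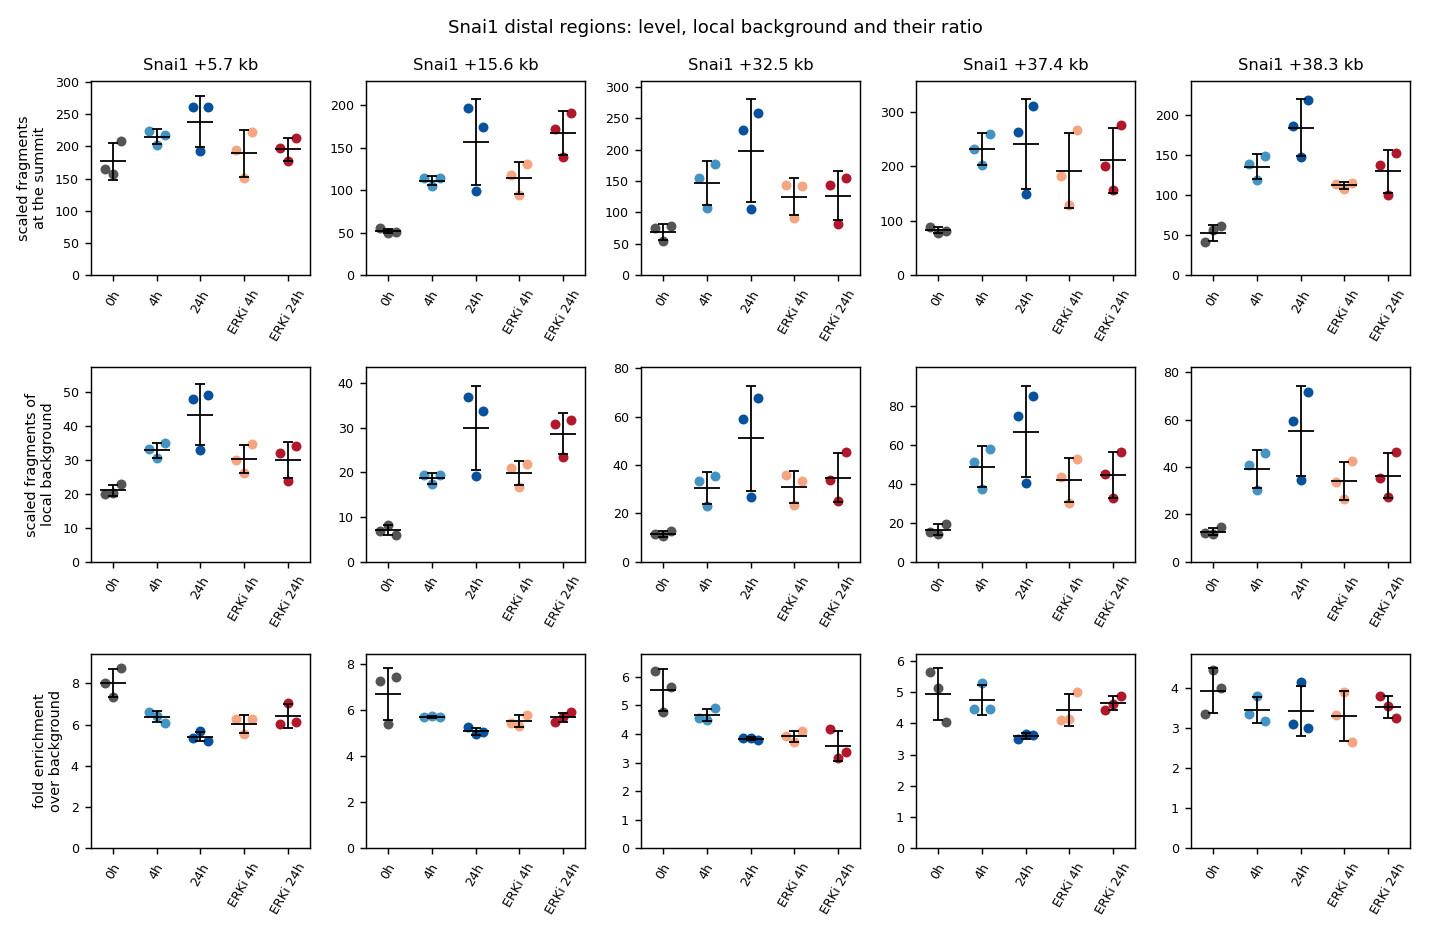
Scaled fragments at the summit (top), scaled fragments of local background (middle) and fold enrichment (bottom) at the 5 distal Snai1 regions with a peak in every library; points are libraries and bars the mean ± SD (n = 3). Level and background at +15.6 to +38.3 kb are higher in every treated library than at 0h, while fold enrichment is not.

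Under ERKi the Snai1 region at +15.6 kb kept its gain. It held 118.2, 94.7 and 131.3 scaled fragments at ERKi 4h and 172.4, 139.3 and 190.6 at ERKi 24h. The difference from 24h was 0.14 ± 0.22 (log2, SE, 95% interval -0.32 to 0.60, adjusted p = 0.78), and from 0h it was 1.67 ± 0.22 (adjusted p = 9.74e-05). At +37.4 kb ERKi 24h held 200.2, 156.3 and 275.8, a difference from 24h of -0.17 ± 0.28 (95% interval -0.76 to 0.42, adjusted p = 0.79) and from 0h of 1.30 ± 0.28 (adjusted p = 0.00362).

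The neighbouring regions were lower with ERKi at 24h, short of the threshold in the comparison without pairing. At +38.3 kb ERKi 24h held 137.0, 100.3 and 152.4, each below the 24h library of the same number. The difference was -0.51 ± 0.20 (log2, SE, adjusted p = 0.141), and with the replicate number as a block it was called (adjusted p = 0.0229). Against 0h the region at +38.3 kb stayed higher by 1.29 ± 0.20 (adjusted p = 0.000346), a call kept without any one of the 6 libraries. By fold enrichment it was -0.22 (adjusted p = 0.554). At +32.5 kb the values were 143.8, 82.0 and 154.7, and the difference was -0.60 ± 0.33 (adjusted p = 0.329, with the block 0.00636). Against 0h it was 0.84 ± 0.33 (adjusted p = 0.0806, with the block 0.000287), and by fold enrichment it was -0.71 (adjusted p = 0.00264). The region at +31.5 kb, which had no peak at ERKi 24h, differed from 24h by -2.15 ± 0.65 (adjusted p = 0.0544, with the block 0.0362, with the local floor 0.134). For the mean over all distal regions the difference was -0.52 ± 0.19 (adjusted p = 0.128, with the block 0.0278), and 7.74% of genes were called. That mean includes the floor at +31.5 kb, and with the local floor it was -0.30 (adjusted p = 0.246). Against 0h the mean stayed higher by 0.58 ± 0.19 (adjusted p = 0.0424), a call lost without any one of the 6 libraries, and 22.2% of genes were called. The local background at +38.3 kb was 36.3 ± 9.54 scaled fragments at ERKi 24h, also below that at 24h, and by fold enrichment the mean differed from 24h by -0.0022 (log2, adjusted p = 0.991).

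The promoter region of Snai1 at -455 bp (167362869 to 167363453) was weak and had a peak in 11 of 15 libraries. It held 18.6, 32.3 and 19.7 scaled fragments at 0h and 29.7, 30.6 and 23.6 at 4h. At 24h replicate 2 alone had a peak there, at 43.4, and at ERKi 24h replicates 1 and 2, at 24.1 and 44.3. No comparison called it (adjusted p = 0.906 for 24h against 0h). By fold enrichment its difference at 24h was -0.85 (log2, adjusted p = 0.0673). A region at +169 bp, in an exon of Snai1, had a peak in 0h replicate 1 and ERKi 4h replicates 1 and 2. Another at +23.8 kb had none at 0h and 12.5 to 23.3 in 11 of the 12 treated libraries, and it was not called by level (adjusted p = 0.56 at 4h and 0.282 at 24h). With 0h at the floor, it was called by fold enrichment at both times (0.92 with adjusted p = 0.0298 and 0.68 with 0.0326) and, at 24h, with the floor set by the local background (adjusted p = 0.0196).

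**Figure D3:**
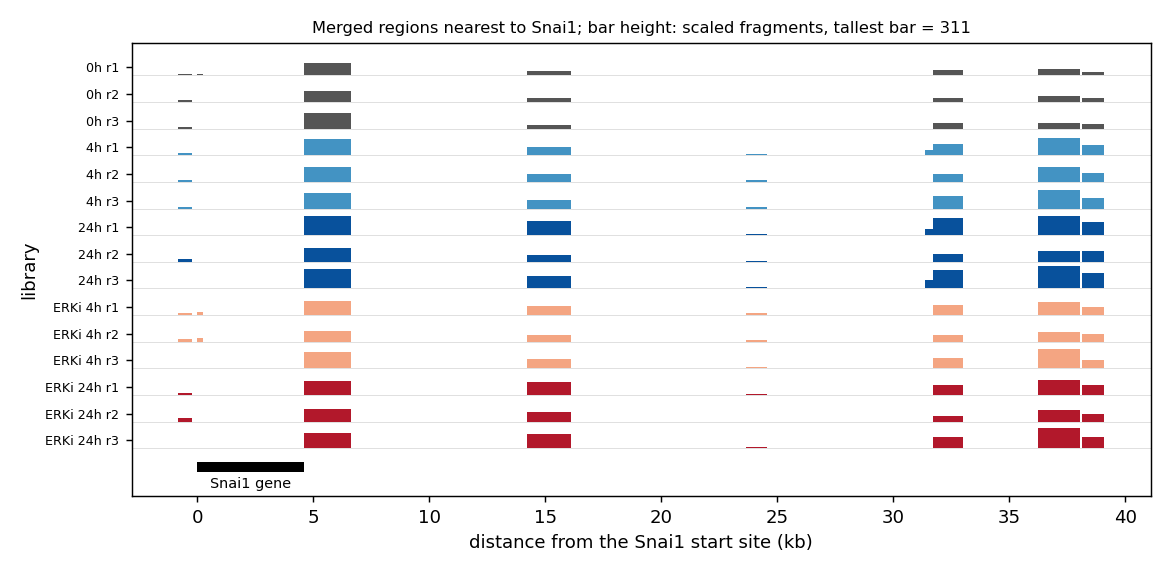
Merged regions nearest to Snai1 by distance from its start site (kb), 1 row per library, with bar height for scaled fragments on a linear scale and bar width for the region. The tallest bar is 24h replicate 3 at +37.4 kb, and the bars at +15.6, +32.5, +37.4 and +38.3 kb are shorter in the 0h rows than in the others.

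Snai2 encodes Slug, a Snail relative that marks mesenchymal and basal mammary cells, and Snai3 the least studied member of the family. Snai2 (chromosome 16, 14705945 to 14709488) had no peak of any kind within 100 kb in any of the 15 libraries. The closest summit lay 254.3 kb away and was nearest to Abcc1. Snai3 (chromosome 8, 124978106 to 124984592, minus strand) had a promoter peak in every library. Its region at -932 bp (124983930 to 124986502) lies in an intron of the overlapping gene Gm20388 and held 96.2, 77.1 and 126.9 scaled fragments at 0h, 166.7, 133.5 and 176.3 at 4h, and 137.0, 103.1 and 150.2 at 24h. The 4h libraries lay above those of 0h without overlap, with a difference of 0.69 ± 0.22 (log2, SE, adjusted p = 0.154, with the block 0.00299).

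At ERKi 4h the Snai3 promoter held 149.4, 161.6 and 176.4, and at ERKi 24h 158.8, 128.9 and 228.9. ERKi 24h was above 0h by 0.77 ± 0.22 (adjusted p = 0.0221), and the call was lost without 0h replicate 1 (0.0624), 0h replicate 2 (0.0951) or ERKi 24h replicate 3 (0.123). By fold enrichment that difference was 0.06 (adjusted p = 0.818). Against 24h it was 0.38 ± 0.22 (adjusted p = 0.372, with the block 0.0439), and at 24h against 0h 0.39 ± 0.22 (adjusted p = 0.267, with the block 0.0263). The distal region at -2.9 kb had a peak in 14 libraries and 50.6 to 103.1 scaled fragments, and no comparison called it by level. By fold enrichment it was lower at ERKi 24h than at 0h (-0.61, log2, adjusted p = 0.015).

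Zeb1 (ENSMUSG00000024238, chromosome 18, 5591858 to 5775465, plus strand) encodes a repressor of epithelial genes. A region in an intron was lower at 24h of TGF-β, while the call of a rise at -81.1 kb rests on the floor for 0h. The intronic region at +25.5 kb of the nearest of its 4 start sites (5619401 to 5620562) held 39.5, 57.2 and 54.7 scaled fragments at 0h, 24.4, 31.8 and 30.2 at 4h, and 17.5, 29.3 and 20.8 at 24h. All 6 libraries with TGF-β and DMSO lay below all 3 at 0h. It fell by 1.18 ± 0.27 at 24h (log2, SE, adjusted p = 0.00515), and at 4h the difference was -0.80 ± 0.27 (adjusted p = 0.172, with the block 0.0318).

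With ERKi this Zeb1 region was higher at 24h than with DMSO. It held 38.1, 40.4 and 51.3 scaled fragments at ERKi 4h and 56.4, 49.5 and 61.7 at ERKi 24h, above every DMSO library of the same time. The ERKi 4h libraries were each below the 0h library of the same number, a comparison that was not tested. ERKi 24h was 2.53-fold above 24h (adjusted p = 0.00641), the only member region called in that comparison. From 0h it differed by 0.16 ± 0.27 (95% interval -0.41 to 0.72, adjusted p = 0.74). At ERKi 4h the difference from 4h was 0.58 ± 0.27 (adjusted p = 0.991). The difference by fold enrichment was -0.50 at 24h against 0h (adjusted p = 0.0251) and 0.73 at ERKi 24h against 24h (0.00562). The region lies in an intron of Zeb1. If the 5′ end of each gene is its only start site it is nearest to Gm10125, a gene with a start site 27.3 kb away. The region at +24.7 kb, 147 bases away, held 18.3 to 34.4 scaled fragments in 14 libraries and was not called.

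At -81.1 kb (5509533 to 5511123), in an intron of Gm10125, no library of 0h, 4h or ERKi 4h had a peak. The level was 69.8, 18.8 and 56.3 scaled fragments at 24h and 40.6, 16.9 and 41.4 at ERKi 24h. The 24h difference of 1.58 ± 0.43 (adjusted p = 0.0172) rests on the floor for 0h and on few libraries, since it is lost without 0h replicate 1 (adjusted p = 0.0756), 24h replicate 1 (0.0953) or 24h replicate 3 (0.0753), and under a floor at the 25th percentile (0.256). It was 1.63 by fold enrichment (adjusted p = 0.00126), where 0h holds a floor as well. ERKi 24h differed from 24h by -0.46 ± 0.43 (adjusted p = 0.641) and from 0h by 1.12 ± 0.43 (adjusted p = 0.0794), or 1.30 by fold enrichment (adjusted p = 0.00593).

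The Zeb1 promoter region at -339 bp (5591055 to 5591752) had a peak in every library and lies 0.7 kb from the start of Gm10125. It held 82.8, 47.2 and 71.1 scaled fragments at 0h, 70.7, 67.3 and 59.4 at 4h, and 55.0, 70.3 and 73.1 at 24h, a difference of 0.01 ± 0.23 at 24h (95% interval -0.48 to 0.50). At ERKi 24h it held 44.4, 36.5 and 39.8, below every other library. ERKi 24h was lower than 0h by 0.70 ± 0.23 (adjusted p = 0.041), which is lost without any one of 5 of the 6 libraries, ERKi 24h replicates 1 to 3 and 0h replicates 1 and 3 (adjusted p = 0.0651 to 0.171). With peaks within 1000 bp merged the direction turned (0.33, adjusted p = 0.192). Against 24h the difference was -0.71 ± 0.23 (adjusted p = 0.074, with the block 0.0201, with the local floor 0.0395), and by fold enrichment -0.72 (adjusted p = 0.0256).

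Zeb2 (chromosome 2, 44839154 to 44972915, minus strand) encodes the second Zeb repressor. Its main peak at +408 bp (44964745 to 44966306), inside the gene, held 89.5, 99.4 and 68.9 scaled fragments at 0h, 98.6, 113.9 and 96.2 at 4h, and 123.1, 131.3 and 101.8 at 24h. All 24h libraries were above all 0h libraries, with a difference of 0.47 ± 0.18 (log2, SE, adjusted p = 0.0744, with the block 0.00514). ERKi 24h held 134.7, 109.4 and 101.6, a difference from 24h of -0.05 ± 0.18 (95% interval -0.42 to 0.33) and from 0h of 0.43 ± 0.18 (adjusted p = 0.102, with the block 0.00891). Fold enrichment there was 8.73 to 12.6 in all libraries. The region counts as distal by the promoter used here. With a promoter of 2500 bp Zeb2 had a promoter peak in all 15 libraries.

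Further distal peaks of Zeb2 appeared at ERKi 24h. The counts per library were 1 in each at 0h, 4h and ERKi 4h, 2, 1 and 1 at 24h, and 6, 2 and 6 at ERKi 24h. ERKi 24h and 0h did not overlap, as for 15.9% of genes in either direction (exact permutation p = 0.1, the smallest possible). These peaks were weak. At +60.5 kb, in an intron, the 3 ERKi 24h libraries alone had a peak, at 10.5, 18.2 and 10.16 scaled fragments, and at +90.3 kb the peaks were 15.7 in 24h replicate 1 and 16.6 and 17.97 in ERKi 24h replicates 1 and 3. Neither was called by level (adjusted p = 0.713 and 0.576 for ERKi 24h against 24h). At +60.5 kb the ERKi 24h peaks lay at the floor of their own libraries. The difference there was -0.20, that between the floors, so the level could show no rise. By fold enrichment, where 24h holds a floor too, the differences were 0.57 at +60.5 kb (adjusted p = 0.0129) and 0.52 at +90.3 kb (0.342). Both regions passed the filter almost wholly through ERKi 24h, and the other libraries hold the floor. With peaks of -log10 q of at least 10 the mean difference in number was 0.667, compared with 3.67 in the full lists.

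**Figure D4:**
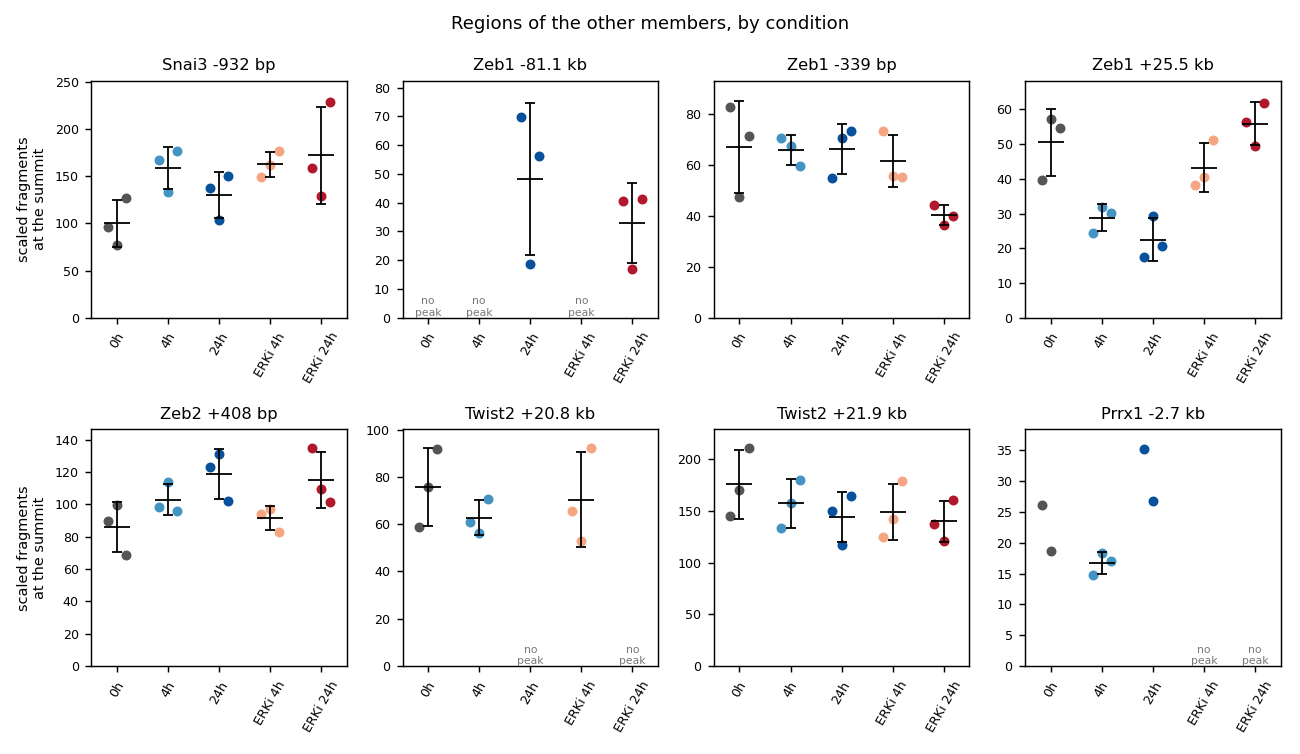
Scaled fragments at the summit in each library of 8 regions near Zeb1, Zeb2, Twist2, Snai3 and Prrx1, with the mean ± SD where all 3 libraries had a peak. Zeb1 +25.5 kb is lower at 4h and 24h than at 0h and higher at ERKi 24h than at 24h, and the Zeb1 promoter is lowest at ERKi 24h.

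Twist1 and Twist2 encode basic helix-loop-helix factors that act in mesoderm and neural crest. Twist1 (chromosome 12, 34642536 to 34644682) had no peak within 100 kb in any library, and its closest summit was 118 kb away, with 1 to 4 peaks beyond the limit in each library for which it was the nearest gene. Twist2 (chromosome 1, 93698038 to 93744605, plus strand) had no promoter peak in any library, yet 6 to 10 distal peaks in each. Its strongest region at +21.9 kb (93719279 to 93721298), in an intron, held 145.4, 170.3 and 211.1 scaled fragments at 0h, 133.5, 158.0 and 180.1 at 4h, and 150.1, 117.2 and 164.1 at 24h. The groups overlap, with a difference of -0.29 ± 0.19 at 24h (log2, SE, adjusted p = 0.362). With ERKi it held 125.0, 142.6 and 178.4 at 4h and 137.7, 121.1 and 161.0 at 24h, a difference of -0.03 ± 0.19 from 24h (95% interval -0.44 to 0.37). The block called ERKi 24h against 0h alone (-0.32, adjusted p = 0.0407).

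The neighbouring Twist2 region at +20.8 kb (93718562 to 93718996), 282 bases upstream, had a peak in all 9 libraries of 0h, 4h and ERKi 4h and in none of the 6 of 24h and ERKi 24h. It held 58.9, 75.8 and 91.9 scaled fragments at 0h, 61.1, 56.3 and 70.7 at 4h, and 65.4, 53.0 and 92.3 at ERKi 4h. At 24h it fell by 2.37 ± 0.30 (log2, SE, adjusted p = 7.03e-05) and at ERKi 24h by 2.57 ± 0.30 relative to 0h (adjusted p = 3.58e-05). The size rests on the floor. With a floor set by the local background the difference at 24h was -0.77 (adjusted p = 0.014), by fold enrichment -0.18 (0.452), and with peaks within 1000 bp merged, which joins it to its neighbour, -0.30 (0.301). The neighbour at +21.9 kb kept its peak in every library. Another region at +15.7 kb held 69.0 to 147.3 in all libraries, and those at +50.8 and +56.4 kb held 16.2 to 45.3 and 26.1 to 58.6. None of these 3 was called in any comparison by level or fold enrichment. The regions at -92.9 and -92.1 kb had peaks in 3 and 6 libraries at 10.4 to 18.9 scaled fragments.

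Prrx1 (chromosome 1, 165175247 to 165243841, minus strand) encodes a homeodomain factor of mesenchyme. It had weak peaks within the gene at -2.7 and -3.3 kb of the nearest of its 4 start sites, both upstream of that start and in an intron. The distal peaks numbered 0, 2 and 2 at 0h, 1, 2 and 2 at 4h, and 1, 2 and 3 at 24h. With ERKi there were 0, 1 and 1 at 4h and none in the 3 libraries at 24h. The 24h and ERKi 24h libraries did not overlap, as for 7.66% of genes in either direction (exact permutation p = 0.1). Over both times, with libraries permuted within each time, ERKi libraries had fewer peaks, by a mean difference of -1.5 (two-sided exact permutation p = 0.015), one of 6 members tested in this way. Adjusted over 13190 genes this p was 0.916, and 3.83% of genes had an exact p below 0.05. Twist2 had 1.67 more (exact permutation p = 0.045, adjusted p = 1).

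The 2 Prrx1 regions had a peak in 7 and 9 libraries. At -2.7 kb they were 26.1 and 18.6 scaled fragments in 0h replicates 2 and 3, 14.8, 18.4 and 17.0 at 4h, and 35.2 and 26.7 in 24h replicates 2 and 3, with no peak in any ERKi library. At 24h ERKi differed by -0.92 ± 0.35 (log2, SE, adjusted p = 0.132, with the block 0.0142). That value rests on the floor, since no ERKi 24h library had a peak there. The region passed the filter only through libraries without the inhibitor, so the fill sets the direction. With the floor set by the local background the difference was -1.10 (adjusted p = 0.0758). Peaks of -log10 q of at least 10 gave a mean difference in number at 24h of -1, compared with -2 in the full lists, and so did the 50000 strongest peaks of each list. At -3.3 kb 9 libraries had a peak, at 11.3 to 48.1 scaled fragments, and no comparison called it by level or by fold enrichment.

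In all, at 4h against 0h 3 of the 27 regions were called, all higher and all at Snai1, where 2.57% of all tested regions were called. At 24h against 0h 8 were called, 6 higher (5 at Snai1, 1 at Zeb1) and 2 lower (1 each at Zeb1 and Twist2), where 19.3% of all were called. Among them the rises at Snai1 +31.5 kb and Zeb1 -81.1 kb, and the size of the fall at Twist2 +20.8 kb, rest on the floor. The median difference at 24h was 0.20 (log2) over the 27 regions and 0.03 over all. That 0.03 is the difference between the floors of 24h and 0h, as at Zeb2 +60.5 kb, which had no peak at either. At ERKi 4h against 4h limma called 0 of 27, with 2 at an unadjusted p below 0.05, where 0.167% of all regions and 0.0562% of genes by mean distal level were called. At ERKi 24h against 24h 1 was called, where 7.51% of all were. The median difference was -0.20 over the 27 and -0.06 over all. That -0.20 is the difference between the floors of ERKi 24h and 24h, as at Twist2 +20.8 kb, which had no peak at either. It therefore shows no change of level. At ERKi 24h against 0h 6 were called, 4 higher and 2 lower, where 20.5% of all were. The change of the ERKi effect between 4h and 24h was called at 0 of 27 regions, with 1 at an unadjusted p below 0.05 and 0 under the block, where 0.198% of all were called, so the members give no region at which the effect of ERKi was shown to differ between the times.

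The comparisons with 0h share the 0h libraries, and those with 24h or ERKi 24h share these. Libraries of one replicate number deviated together, and with that number as a block the counts were 6 at 4h (7.83% of all regions), 11 at 24h (31.3%), 0 at ERKi 4h against 4h (1.13%), 7 at ERKi 24h against 24h (19.2%) and 9 at ERKi 24h against 0h (34.7%). Of the 7 for ERKi at 24h 5 were lower, namely Snai1 +31.5, +32.5 and +38.3 kb, the Zeb1 promoter and Prrx1 -2.7 kb. Zeb1 +25.5 kb and the Snai3 promoter were higher. The calls at Snai1 +31.5 kb and Prrx1 -2.7 kb rest on the floor, since no ERKi 24h library had a peak there. By mean distal level Snai1 alone of the 6 members with a tested distal region was called, at 24h and ERKi 24h against 0h. The block added Snai1 at 4h, Twist2 at 24h (-0.31, adjusted p = 0.0484), and for ERKi 24h against 24h Snai1, Zeb1 (0.47, adjusted p = 0.0467) and Prrx1 (-0.82, adjusted p = 0.0249). Against 0h at ERKi 24h it added Zeb1 (0.49, adjusted p = 0.0234) and Twist2 (-0.38, adjusted p = 0.016). Both Twist2 means include the floor at +20.8 kb, and with the local floor and no block they were -0.14 (adjusted p = 0.655) and -0.13 (0.657). The Zeb1 mean against 0h includes -81.1 kb, where every 0h library held the floor. The Prrx1 mean holds the floor in every ERKi 24h library. With the local floor, itself a fill, and no block these means were 0.53 (adjusted p = 0.0288) and -1.09 (0.124).

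**Figure D5:**
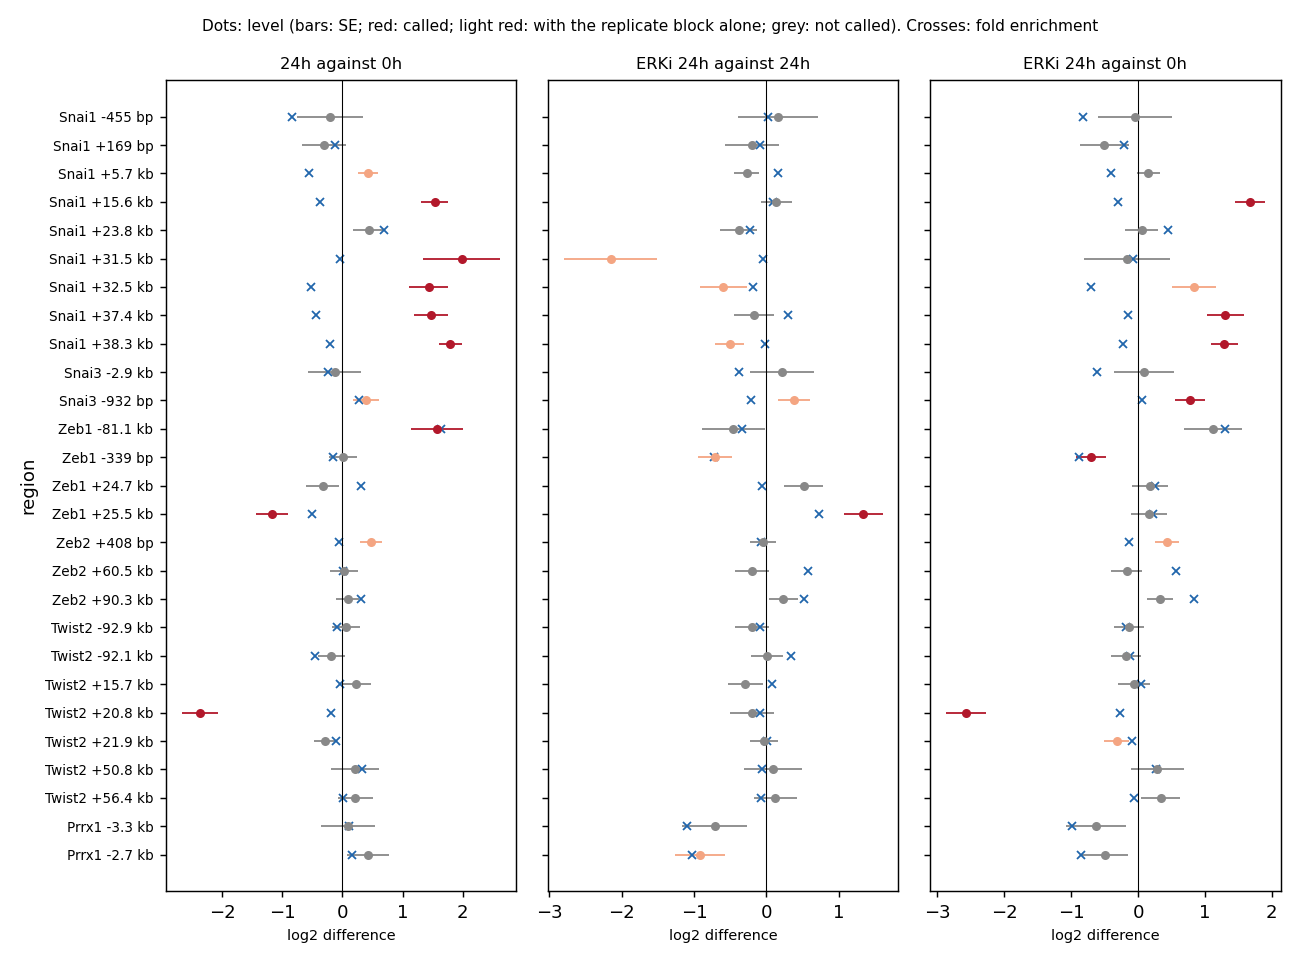
Log2 differences (dots, bars ± SE) of the 27 regions for 24h against 0h, ERKi 24h against 24h and ERKi 24h against 0h, in red where called, light red where called with the replicate block alone and grey otherwise; crosses are the same difference by fold enrichment. The dots of Snai1 at +15.6, +32.5, +37.4 and +38.3 kb lie to the right of 0 at 24h and the crosses to the left. For Zeb1 at +25.5 kb the dot and the cross lie on the same side. They do so at -81.1 kb too, where 0h holds the floor in both measures, so that their sides could not differ at 24h.

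Other genes of the network were counted by list. Among 64 regions of 11 other EMT-inducing factors, 14 were higher and 3 lower at 24h than at 0h, where 19.3% of all regions were called. The median difference was 0.35 (log2), compared with 0.03 over all regions, which is the difference between the floors. Of the 14 higher 7 belonged to Ets1, an ETS factor, and 2 each to Sox4 and Tcf4. With ERKi at 24h 2 were higher and 4 lower than at 24h, where 7.51% of all regions were called. Family relatives had 5 regions in 4 of 7 genes, of which that of Prrx2 alone was higher at 24h. Cofactors of Snail and Zeb, such as the corepressors Ctbp1 and Ctbp2, had 51 regions, 7 higher and 2 lower. The epithelial genes that Snail and Zeb repress, together with their antagonists, had 63 regions with 10 higher and 7 lower. Their median of 0.03 is the difference between the floors as well. Of the 10 higher 6 were at Cldn4, a claudin, and of the 7 lower 4 at Llgl2, a polarity gene. Cdh1, which encodes E-cadherin, had 15 regions, of which 1 was higher at 24h and 2 were lower with ERKi than without at 24h.

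The genes whose mean distal level followed that of Snai1 most closely over the 15 libraries, among 5660 genes with at least 3 tested distal regions, were Slit1 (Pearson r = 0.934), Prss2 (0.934) and Foxb2 (0.923). Slit1 and Foxb2 are on chromosome 19 and Prss2 on chromosome 6. The libraries share conditions and replicate numbers, so r is a description of these libraries.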

How the data were processed

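H3K27ac ChIP-seq of 15 NMuMG/E9 libraries was used, 3 for each of 5 conditions; groups came from the sample labels. The 10 RNA-seq samples and 3 inputs of the series were not analysed here. The authors used bowtie for alignment to mm9 and MACS2, at its default settings, for peaks of every library on its own; the control is not given in the sources used here. Each deposited list gives the fold enrichment of a peak's summit over local background, a ratio of (pileup + 1) to (background + 1), with its −log10 p and −log10 q as MACS2 wrote them. The deposited score repeats −log10 q and was not used. The lists hold no read totals, so the depth is unknown and the number of libraries limits the precision.

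The pileup, which is the number of fragments at the summit, was solved from fold and −log10 p (Poisson upper tail). It could not be solved for 25 of 893719 peaks. Overlapping peaks were merged, and log2 pileups were centred on each library's median over regions with a peak in all 15. A library without a peak in a region was given the 5th percentile of its own peaks. Regions with a peak in at least 3 libraries were tested with limma 3.58.1 in R 4.3.3 (two-sided, 15 libraries in a fit on condition, Benjamini-Hochberg over all regions). The mean over each gene's distal regions was tested in the same way. Peak numbers were tested by exact permutation over libraries. Other steps used Python 3.11.15, SciPy 1.17.1 and pandas 2.3.3. The pileup solution and the fit were tested on simulated data. Start sites of protein-coding genes came from GENCODE vM1, whose build NCBIM37 is mm9, and sequences from the same genome.

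The members, lists and tests were chosen with earlier results of these data known. The rule for named regions was promoter regions, the highest distal region of each member and the called distal region with the largest change in each comparison; +31.5, +32.5, +23.8 kb of Snai1 and other regions beyond it, and the Snai1 promoter sequence, were chosen after their values were seen. Of the 30 pairs of libraries with the same number all had deviations from the group means that correlated above 0.1 (0.201 to 0.578), which pairs them by the data and not by the labels. Alternatives were the replicate block, fold enrichment as the level, quantile normalization, other floors, all regions or only those with a peak in 15 libraries, peaks within 1000 bp merged, a promoter of 2500 bp, the 5′ end as the only start site, −log10 q of at least 10, the 50000 strongest peaks, and each library left out. The floor set by the local background was added after the data were examined.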

Additional observations from a re-analysis of the deposited data

How the results depend on the processing

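Of 333 alternatives run on 20 named differences 281 kept direction and call, 38 lost the call and 14 reversed. Of the reversals 13 came with fold enrichment as the level, all at Snai1. At 4h against 0h they were -0.22 at +15.6 kb, -0.052 at +37.4 kb and -0.19 at +38.3 kb (log2). At 24h they were -0.38 at +15.6 kb, -0.038 at +31.5 kb, -0.52 at +32.5 kb, -0.44 at +37.4 kb, -0.20 at +38.3 kb and -0.20 for the mean distal level. At ERKi 24h against 0h they were -0.29, -0.15 and -0.22 at +15.6, +37.4 and +38.3 kb and -0.20 for the mean. The local background in the denominator rose with the level there. Snai1 +32.5 kb at ERKi 24h against 0h, not called by level, was -0.71 by fold enrichment. With peaks within 1000 bp merged, the Zeb1 promoter at ERKi 24h against 0h was 0.33.

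The replicate block, a paired fit, moved the called regions from 3 to 6 at 4h and from 1 to 7 at ERKi 24h against 24h, and the called genes from 0 to 1 at 4h, 1 to 2 at 24h, 0 to 3 at ERKi 24h against 24h and 1 to 3 against 0h. It changed no other call than those given with a value under the block. Called regions at 4h numbered 1 by fold enrichment. At 24h they numbered 5 with peaks in all 15 libraries required and 5 after merging. At ERKi 24h against 24h they numbered 3 by fold enrichment, 2 under quantile normalization, the 25th percentile floor or the local floor, and 0 with the 5′ end as the only start site, which gives Zeb1 +25.5 kb to Gm10125. At ERKi 24h against 0h they numbered 3 after merging. Called genes at 4h numbered 1 with the local floor, with all 15 libraries required, after merging and with the 2500 bp promoter. At 24h they numbered 2 with all 15 required, with −log10 q of at least 10 and with the 5′ end alone. At ERKi 24h against 24h there was 1 with all 15 required. Against 0h there were 3 by fold enrichment or with the local floor, 2 after merging and 0 under quantile normalization, the 25th percentile floor or no filter on libraries. By fold enrichment these were Snai3 (-0.61, adjusted p = 0.0317), Zeb1 (0.59, 0.00517) and Zeb2 (0.42, 0.00766), without Snai1. With the local floor they were Snai1, Zeb1 and Zeb2. At 24h against 0h fold enrichment called Zeb1 (0.48, adjusted p = 0.0152) and not Snai1. The Zeb1 and Zeb2 means include regions where 0h holds the floor.

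The mean differences in distal peak number shrank with −log10 q of at least 10 to 0.667 at 4h and 1 at 24h for Snai1, -1 for Prrx1 and 0.667 for Zeb2, and with the 50000 strongest peaks to 1.67 at 24h for Snai1, -1 for Prrx1 and 1 for Zeb2. Leaving out each library in turn gave 2 to 3 called regions at 4h, 6 to 9 at 24h, 1 to 2 at ERKi 24h against 24h and 4 to 7 against 0h. Called genes ranged from 0 to 1 in both ERKi 24h comparisons. Peak number differences ranged from 2.17 to 2.67 (4h) and 2.17 to 3.17 (24h) for Snai1, from -2.5 to -1.5 for Prrx1 and from 3 to 5 for Zeb2. The cause of each change was not tested except where given.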
